A study of Mus musculus with 6 samples.

Results

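Microvillar cells, tuft cells and ionocytes are scattered, rare cells of airway and olfactory epithelium, and 8 of their genes were followed here among the 44519 rows of the deposited table. Ascl3, Foxi1, Cftr and Coch stand for the ionocyte-like microvillar cells, and Trpm5, Pou2f3, Plcb2 and Gnat3 for the tuft-like ones, 4 genes each. Each gene was found by its name in the table's gene column, and its level was then compared between TNF and control libraries. Expression was measured by bulk RNA sequencing of GFP-positive cells, labelled as horizontal basal cells (HBCs, the reserve stem cells at the base of the epithelium), sorted from mouse olfactory neuroepithelium. There were 3 TNF libraries (numbered 1, 3 and 4), made from mice of genotype Krt17-EGFP; Cyp2g1-rtTA; TRE-TNF after 6 weeks of doxycycline. In these mice the Cyp2g1 promoter, which is active in sustentacular supporting cells, drives the transactivator, and doxycycline lets it turn on the TNF transgene. There were 3 control libraries (numbered 1, 2 and 4), made from mice with Krt17-EGFP alone and labelled NoDox, so that all 6 libraries share the Krt17 reporter. Transgenes and doxycycline differ together between the groups and cannot be told apart, and the labels give neither the age of the mice nor whether a library came from 1 animal. Values are listed in the order of these replicate numbers. The comparison asks how transcription of the sorted cells differs after prolonged inflammation.

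Ionocytes carry proton pumps and chloride channels and are thought to set the salt and acid balance of the fluid that covers the epithelium, under the control of the forkhead factor Foxi1. Tuft cells sense irritants and microbes through the signalling cascade first known from taste cells, in which a G protein, a phospholipase, calcium release and the channel Trpm5 act in turn, and Pou2f3 is required for their formation. In the olfactory epithelium both kinds have apical microvilli, bear no cilia and do not project to the brain.

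Libraries within a group were not alike. Pearson correlations across genes were 0.983 between TNF replicates 3 and 4 and 0.972 between control replicates 1 and 2, whereas those of TNF replicate 1 within its group were 0.9125 and 0.909, and those of control replicate 4 were 0.931 and 0.922. The HBC marker list, 9 rows with Krt5 and Trp63 among them, summed to 4742 to 7304 FPKM in TNF libraries, against 676 to 3150 FPKM in control libraries, the lowest being control replicate 4, so that these markers were present in every library. Most of the sum was the merged row of Krt14 and Krt17, the reporter's gene, at 3645 to 5651 FPKM in TNF and 402 to 2265 FPKM in control libraries. In the test described below 4 of the 9 rows were called higher, against 10.9% of all rows. Krt5 and Trp63 were not among them (adjusted p = 0.110 and 0.196, limma). Read depth is unknown, because the deposited values are FPKM (fragments per kilobase of transcript, scaled to library size) and not counts.

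Of the 8 members, 6 passed the filter on low values (at least 1 FPKM in at least 3 libraries). Coch and Pou2f3 fell in the TNF libraries, while the Foxi1, Cftr and Trpm5 rows and the merged row of Ascl3 did not pass the test in either direction (limma, adjusted p threshold 0.05, n = 3 per group). Among the 15037 rows tested, 38.0% were called, 27.2% lower and 10.9% higher. Pou2f3 reached 1 FPKM in control libraries alone, so it passed the filter only through the group in which it is high, and the number of members called lower is not read against that share. Plcb2 and Gnat3 did not reach 1 FPKM in any library, and they entered a fit only when the filter was dropped.

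**Figure D1:**
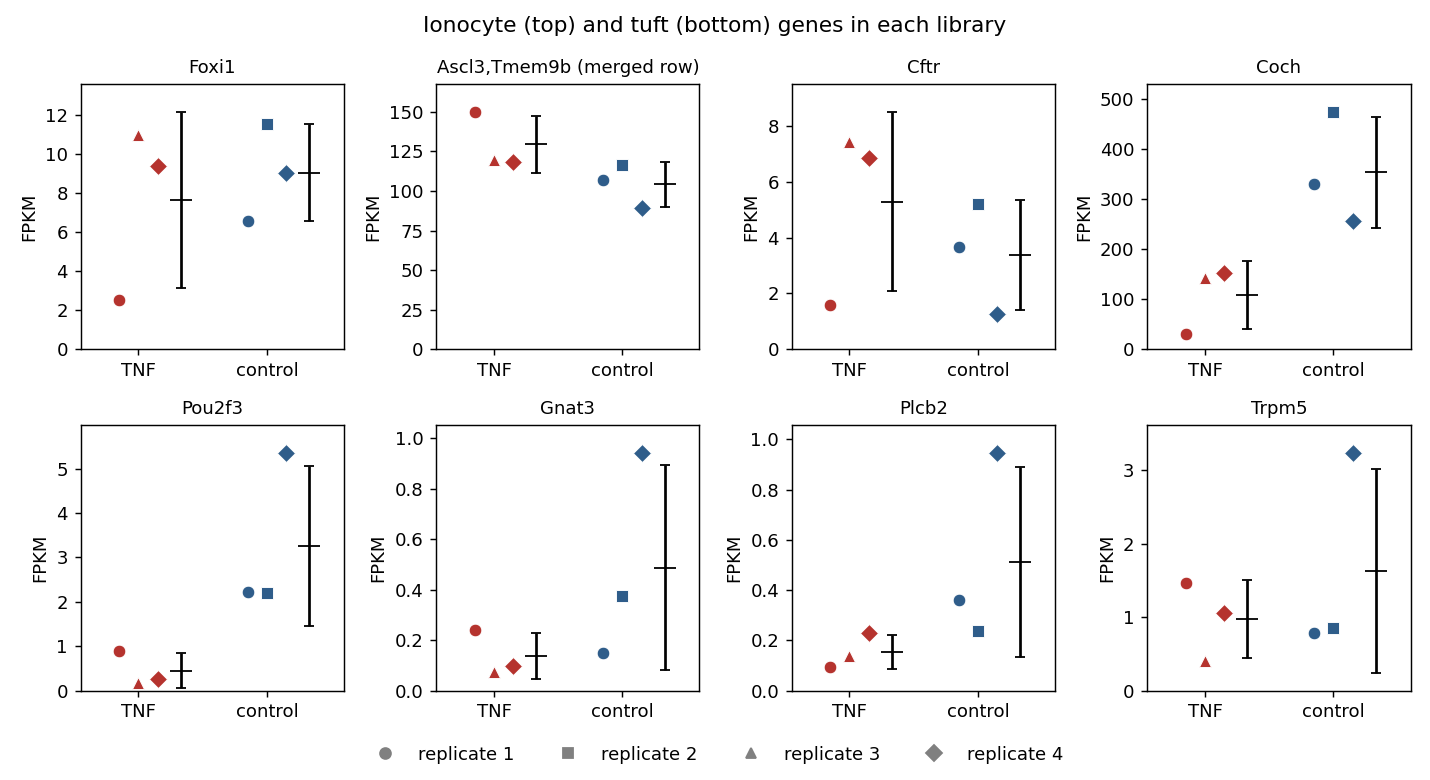
FPKM (linear axis, its own scale in each panel) of the 8 members in the 3 TNF (red) and 3 control (blue) libraries, with symbols for the replicate number and black bars for the group mean ± SD. The 3 TNF libraries lie below the 3 control libraries for Coch, Pou2f3 and Plcb2 and above them for the merged Ascl3,Tmem9b row. For Foxi1, Cftr, Gnat3 and Trpm5 the groups overlap.

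Foxi1 (chromosome 11, 34204338 to 34208089, minus strand, mm10) encodes the forkhead factor that directs ionocyte identity. Its level was 2.51, 10.99 and 9.40 FPKM in the TNF libraries, against 6.58, 11.5 and 9.04 FPKM in the controls. TNF replicates 3 and 4 lay within the control range, and TNF replicate 1 lay below it. The log2 change was −0.37 ± 0.49 (SE, adjusted p = 0.585, limma), with a 95% interval from −1.55 to 0.80. The interval holds changes of either sign, so these libraries did not settle the direction. Without TNF replicate 1 the estimate was 0.18. When each library was scaled to its median HBC marker level, which moved the median of all rows to −1.56, it was −1.69 and passed (adjusted p = 0.0375).

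Ascl3, a basic helix-loop-helix factor of microvillar and gland duct cells, could not be measured on its own. The deposited table merges it with its neighbour Tmem9b, which encodes a transmembrane protein, and the exons of Ascl3 (chromosome 7, 109727465 to 109731726, minus strand) total only 700 bases. The merged row was at 150, 120 and 118 FPKM in the TNF libraries, against 107, 117 and 88.9 FPKM in the controls. All TNF values were above all control values, a pattern found at 16.8% of rows tested (53.0% of rows did not overlap in one direction or the other), but by less than the test requires (0.31 ± 0.18, adjusted p = 0.219, limma), and the change was −1.19 when scaled to the HBC list. Under median-of-ratios scaling it was 0.55 and passed (adjusted p = 0.0419). What part of the row is Ascl3 cannot be told apart in these values.

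Cftr (chromosome 6, 18170687 to 18322768, plus strand) encodes the chloride channel that is mutated in human cystic fibrosis. It was at 1.598, 7.41 and 6.84 FPKM in the TNF libraries, against 3.67, 5.19 and 1.27 FPKM in the controls. One library in each group was low, TNF replicate 1 and control replicate 4, and the other 4 libraries lay higher, with TNF above control. The log2 change was 0.46 ± 0.57 (SE, adjusted p = 0.557, limma), with a 95% interval from −0.89 to 1.81. When both low libraries were left out together it was 0.60 ± 0.20 and passed (adjusted p = 0.0474, against a range of 0.0474 to 0.961 over 16 alternatives), although those libraries stood apart for this gene itself.

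Coch (chromosome 12, 51593341 to 51605771, plus strand) encodes cochlin, a secreted matrix protein best known from the inner ear. Coch was the most abundant member with a row of its own. Its level was 29.8, 143 and 153 FPKM in the TNF libraries, against 329, 474 and 257 FPKM in the controls. Every TNF library was below every control library, as at 36.2% of rows tested, and the group means were 109 ± 68.6 FPKM in TNF and 353 ± 110 FPKM in control libraries (SD, n = 3 each). The log2 change was −1.96 ± 0.63 (SE, adjusted p = 0.0487, limma), just inside the threshold. The direction was kept in 16 of 16 alternatives, but 5 passed, with adjusted p from 0.00124 to 0.145. Without TNF replicate 1, the library with the lowest value, the fall was smaller and passed (−1.20, adjusted p = 0.0142). The call was missing when TNF replicate 3 or control replicate 1, 2 or 4 was left out, and also with a pseudocount of 0.1, weaker filters, a robust variance, or median-of-ratios, upper-quartile or quantile scaling. A second row with the Coch name held 0 FPKM in each TNF library and 0.523, 0 and 2.79 FPKM in the controls.

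The promoter sequences of Coch, Foxi1 and Ascl3 are shown because Coch is the ionocyte member that passed the test, Foxi1 is the factor tied to these cells and Ascl3 is the one member with a motif match. They are the 250 bases before each gene's start in RefSeq (GRCm38.p6), which has such an entry for 7 of the members and none for Pou2f3. Capitals mark matches to TATAAA on the gene's strand, to the forkhead motif TGTTTAC on either strand, or to ATGCAAA, the core of the POU octamer ATGCAAAT, on either strand.
Coch, chr12:51593091-51593340, plus strand: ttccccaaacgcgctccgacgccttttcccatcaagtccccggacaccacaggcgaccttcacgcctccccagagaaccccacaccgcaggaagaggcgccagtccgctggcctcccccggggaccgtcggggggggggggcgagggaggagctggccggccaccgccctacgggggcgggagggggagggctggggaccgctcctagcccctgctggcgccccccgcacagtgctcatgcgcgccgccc
Foxi1, chr11:34208090-34208339, minus strand: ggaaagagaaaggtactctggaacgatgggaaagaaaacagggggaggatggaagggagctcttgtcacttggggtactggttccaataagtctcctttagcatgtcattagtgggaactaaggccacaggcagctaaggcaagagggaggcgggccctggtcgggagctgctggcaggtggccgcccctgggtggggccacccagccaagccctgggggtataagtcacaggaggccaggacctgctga
Ascl3, chr7:109731733-109731982, minus strand: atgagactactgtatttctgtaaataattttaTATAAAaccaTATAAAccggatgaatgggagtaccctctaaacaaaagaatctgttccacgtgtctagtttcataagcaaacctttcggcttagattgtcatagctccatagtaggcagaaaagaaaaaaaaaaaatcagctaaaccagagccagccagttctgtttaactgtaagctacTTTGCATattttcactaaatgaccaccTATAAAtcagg
The forkhead motif was in none of the 7 member promoters and in 3.17% of the 32851 RefSeq promoters of the same length. The octamer core was in the Ascl3 promoter, on the opposite strand at −38 to −32 from the start, and in 4.12% of all promoters, and the full octamer was in none of the 7 and in 1.6% of all. TATAAA occurred 3 times in the Ascl3 promoter and in 7.59% of all promoters. Guanine and cytosine made up 74.8% of the Coch window, 58.8% of the Foxi1 window and 34.8% of the Ascl3 window, against a median of 52.4% over all. A match is a run of letters and not a shown site of binding, and no match says only that these letters are not in this window.

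Most other ionocyte genes did not pass the test. Of 26 ionocyte rows tested, members included, 6 fell and 2 rose, which are shares near or below the 27.2% called lower and 10.9% called higher over all rows. The median log2 change was −0.35, against −0.22 over all rows tested. Bsnd, which encodes barttin, an accessory subunit of chloride channels, was at 0.516, 0.901 and 1.06 FPKM in the TNF libraries, against 1.87, 2.505 and 2.90 FPKM in the controls (−0.91 ± 0.21, adjusted p = 0.0150, limma). Every TNF value was below every control value, as at 36.2% of rows tested. Only 1 TNF library reached 1 FPKM, so the control libraries, in which Bsnd is high, met the filter by themselves. Its call and the number of alternatives that kept it are therefore no measure of support. The call was lost in 5 of 16 alternatives, namely the omission of TNF replicate 3 or control replicate 2 or 4, and 2 others, one of them quantile normalization (−0.26, adjusted p = 0.394).

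The carbonic anhydrase genes Car12 and Car2 fell by 2.98 ± 0.47 and 1.81 ± 0.33 on the log2 scale (SE, adjusted p = 0.00329 and 0.00623, limma). Pde1c, a phosphodiesterase gene that olfactory neurons also use, fell by 2.66 ± 0.45 (adjusted p = 0.00469). Unlike Coch, these genes were lower in TNF replicates 3 and 4 than in TNF replicate 1, with Car12 at 24.6, 9.60 and 9.05 FPKM in the TNF libraries. The 13 mature olfactory neuron markers showed the same split, summing to 980, 44.2 and 37.2 FPKM in the TNF libraries, against 2886 to 5601 FPKM in control libraries, and all 13 were called lower. Their part in the fall of these 3 genes was not tested. Slc12a2, a sodium, potassium and chloride cotransporter gene, was at 39.1 ± 5.25 FPKM in TNF and 43.8 ± 9.44 FPKM in control libraries (adjusted p = 0.621).

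Risers of the ionocyte lists were the UDP-glucose receptor gene P2ry14 and the calcium release channel gene Itpr2. P2ry14 was at 57.8, 44.3 and 38.3 FPKM in the TNF libraries, against 12.8, 17.5 and 16.6 FPKM in the controls (1.51 ± 0.21, adjusted p = 0.00229, limma). Itpr2 was at 14.5, 16.4 and 15.5 FPKM in TNF libraries and 4.58, 6.45 and 3.75 FPKM in control libraries in the same order (1.4996 ± 0.2262, adjusted p = 0.00290). When scaled to the HBC list, the changes were 0.05 for P2ry14 and 0.15 for Itpr2, and neither passed. Other members of these lists did not pass, among them the pump subunit gene Atp6v1b1 (0.68 ± 0.24, adjusted p = 0.0655) and the neuropeptide gene Npy (−2.12 ± 0.79, adjusted p = 0.0748), both named after their values were seen. Atp6v1b1 passed without TNF replicate 1 (adjusted p = 0.0366) and Npy without control replicate 4 (adjusted p = 0.0454). Scaled to the HBC list, Atp6v1b1 turned to −0.75 and did not pass (adjusted p = 0.252, limma).

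TNF replicate 1 was low in many ionocyte genes at once. It held the lowest value of the 6 libraries in 14 of the 26 ionocyte rows (53.8%), against 20.7% of all rows tested. Stap1, an adaptor gene, was at 1.64 FPKM there and 12.7 and 14.2 FPKM in the other TNF libraries, against 22.3, 30.1 and 14.6 FPKM in the controls. For Hepacam2, an adhesion molecule gene, the values were 2.91, 10.9 and 11.6 FPKM in the TNF libraries, against 14.3, 19.4 and 18.1 FPKM in the controls. Moxd1, a monooxygenase-like gene, was at 8.11, 30.7 and 30.9 FPKM in the TNF libraries, against 23.6, 31.2 and 22.0 FPKM in the controls. These 3 genes, which did not pass the test (adjusted p = 0.142, 0.103 and 0.639, limma), are named after their values were seen. Tfcp2l1, a transcription factor gene also named after its values were seen, had its highest value in that library, at 31.4 FPKM in TNF replicate 1, at 2.43 and 2.15 FPKM in the other TNF libraries and at 0.357 to 1.27 FPKM in control libraries (adjusted p = 0.133). Fibroblast markers moved with this split, with a sum over 6 genes of 41.5 FPKM in TNF replicate 1 and of 1056 and 1522 FPKM in TNF replicates 3 and 4, against 135 to 525 FPKM in control libraries. The 5 endothelial markers summed to 0.9995, 39.1 and 59.6 FPKM in the TNF libraries, against 7.45 to 8.53 FPKM in control libraries. No marker of either list was at 0 in all libraries, and the part of these cells in the ionocyte values was not tested. In bulk libraries, fewer cells of a type and less RNA per cell cannot be told apart.

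**Figure D2:**
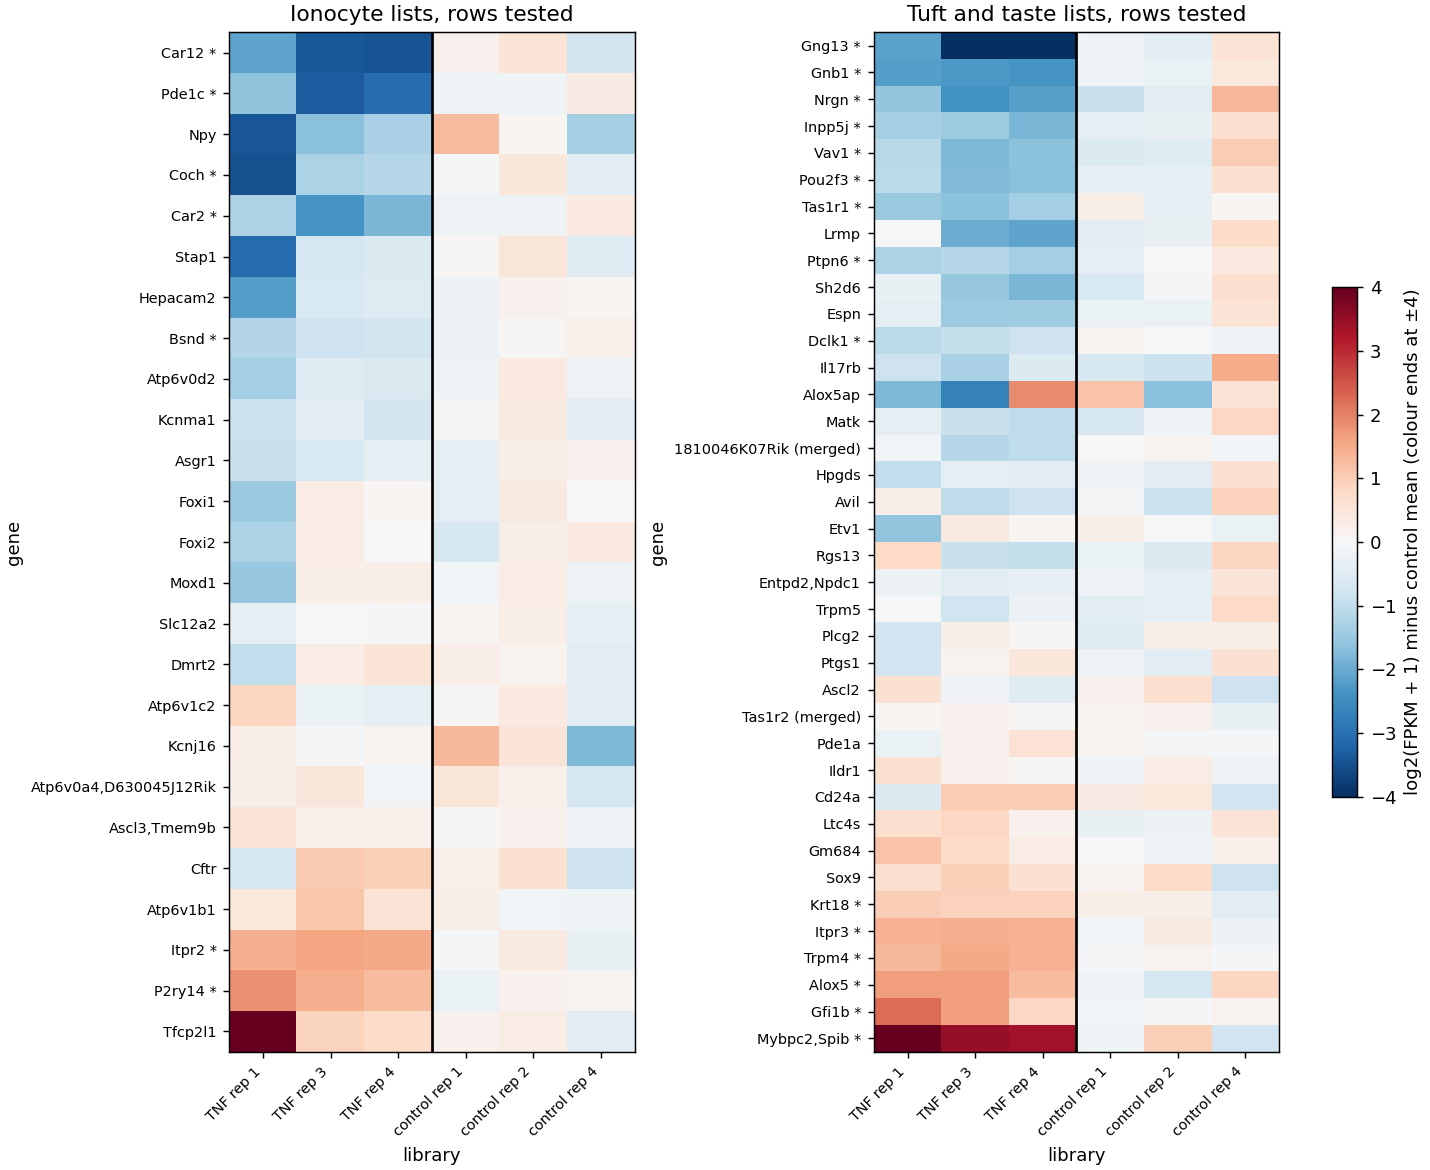
Colour gives log2(FPKM + 1) minus the control mean for tested rows of the ionocyte lists and of the tuft and taste lists (all but those not reported here), in TNF libraries (left of the black line) and control libraries (right of it), with an asterisk at an adjusted p below 0.05. Coch, Stap1 and Hepacam2 are paler in TNF replicates 3 and 4 than in TNF replicate 1, whose Stap1 level is 1.64 FPKM.

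Because TNF replicate 1 was low in Foxi1 itself, ionocyte genes were also set against Foxi1 within each library, a comparison chosen after the values were seen. The ratio of Coch to Foxi1 was 11.9, 13.0 and 16.3 in the TNF libraries, against 50.1, 41.1 and 28.4 in the controls. For Coch the groups did not overlap on this scale and TNF replicate 1 lay near the other TNF libraries (log2 difference −1.51). That did not hold for every gene, since dividing by the low Foxi1 value set TNF replicate 1 far above the other TNF libraries for some. These include the merged Ascl3 row (59.8, 10.9 and 12.6 in the TNF libraries, against 16.3, 10.1 and 9.83 in the controls). P2ry14 is another (23.1, 4.03 and 4.07 in the TNF libraries, against 1.94, 1.52 and 1.84 in the controls). Slc12a2, Tfcp2l1 and Car12 also had their highest TNF ratio in replicate 1, at 13.2, 12.5 and 9.82. Before the division, Slc12a2 was lowest among the TNF libraries there, at 33.1 FPKM. Tfcp2l1 and Car12, at 31.4 and 24.6 FPKM, were already highest there, as were P2ry14 and the merged Ascl3 row. Hepacam2 and Stap1 were also lower relative to Foxi1 in each TNF library than in any control library, with mean ratios of 1.13 ± 0.13 and 1.11 ± 0.43 in TNF and 1.95 ± 0.25 and 2.54 ± 0.89 in control libraries (SD, n = 3 each). For Moxd1 the ratio overlapped, at 3.11 ± 0.27 in TNF and 2.91 ± 0.61 in control libraries. Foxi2, a gene of the same forkhead family and named after its values were seen, overlapped as well, at 0.318 ± 0.045 in TNF and 0.352 ± 0.119 in control libraries. Cftr went the other way, at 0.638, 0.674 and 0.728 in the TNF libraries, against 0.558, 0.451 and 0.140 in the controls.

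Of 25 ratios of tested rows, Pou2f3 among them, 6 were lower in every TNF library, 4 were higher in every TNF library and 15 overlapped. Over all 14117 tested rows without a 0, the ratio to Foxi1 was lower in every TNF library for 6.62% and higher in every TNF library for 14.9%, so the share of higher ratios was near that of all rows. With 3 libraries against 3, a two-sided exact permutation test cannot go below p = 0.1, the value it gave for Coch, Hepacam2, Stap1 and Cftr, which adjusted over 27 ratios was 0.2455. A ratio shows that a pair of genes changed unequally and not which of them changed.

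**Figure D3:**
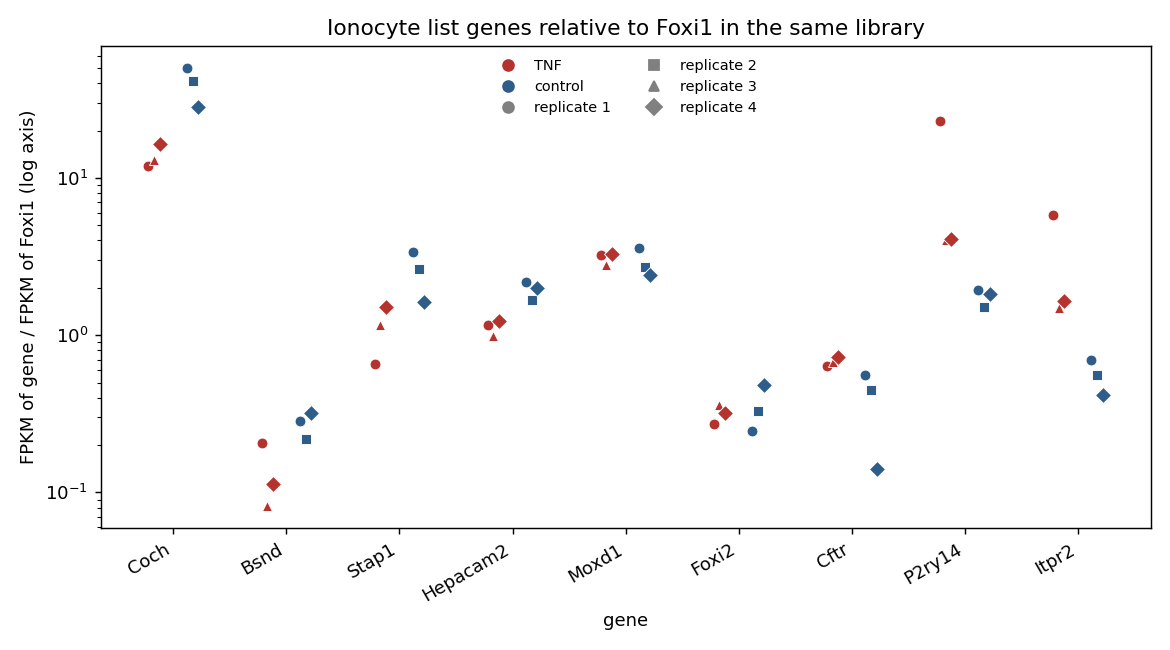
Ratio of each gene's FPKM to that of Foxi1 in the same library (log axis) for 9 ionocyte list genes, with TNF libraries in red at the left of each gene, control libraries in blue at the right and symbols for the replicate number. The Coch ratio is 11.9 to 16.3 in TNF libraries and 28.4 to 50.1 in control libraries, while the Moxd1 and Foxi2 ratios overlap.

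Pou2f3 (chromosome 9, 43123939 to 43210369, minus strand) encodes the POU factor needed for tuft cells, and is also expressed in the upper epidermis. Its level was 0.899, 0.180 and 0.254 FPKM in the TNF libraries, against 2.23, 2.202 and 5.34 FPKM in the controls. Every TNF value was below every control value, as at 36.2% of rows tested, and the highest value was that of control replicate 4. The log2 change was −1.51 ± 0.34 (SE, adjusted p = 0.0132, limma), which understates the change of so low a gene because of the pseudocount of 1. With a pseudocount of 0.1 it was −2.73 (adjusted p = 0.0150). It kept its direction in the 12 alternatives that gave a value and passed in 9 of them. Most of these kept a filter that the row passed only through the control libraries, so their number is no measure of support. With no filter the adjusted p was 0.0330 (limma). Leaving out TNF replicate 3 ended the call (adjusted p = 0.0534), as did quantile normalization (−0.80, adjusted p = 0.109). Without any 1 control library the row left the filter.

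Gnat3 (chromosome 5, 17962549 to 18019834, plus strand) encodes gustducin, the G protein alpha subunit of taste cells. It was at 0.241, 0.0725 and 0.0983 FPKM in the TNF libraries, against 0.149, 0.373 and 0.939 FPKM in the controls. Plcb2 (chromosome 2, 118707517 to 118728438, minus strand), the phospholipase C gene of the same cascade, was at 0.0944, 0.138 and 0.228 FPKM in the TNF libraries, against 0.359, 0.236 and 0.945 FPKM in the controls. Control replicate 4 was the highest library for both, and the groups overlapped for Gnat3 and did not for Plcb2, by a gap between 0.228 and 0.236 FPKM. When the filter was dropped the log2 changes were −0.36 ± 0.20 and −0.365 ± 0.177 (SE, adjusted p = 0.257 and 0.2025, limma), where 22.4% of 27442 rows were called.

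Trpm5 (chromosome 7, 143069153 to 143094642, minus strand) encodes the cation channel at the end of the cascade and is the usual marker of tuft-like microvillar cells. It was at 1.46, 0.401 and 1.06 FPKM in the TNF libraries, against 0.791, 0.854 and 3.23 FPKM in the controls. The groups overlapped, and control replicate 4 was again the highest. The log2 change was −0.33 ± 0.39 (SE, adjusted p = 0.547, limma), with a 95% interval from −1.26 to 0.61. Its exons overlap those of Tssc4 on the other strand, whose row held 31.6, 18.5 and 22.7 FPKM in the TNF libraries and 34.7, 31.4 and 48.6 FPKM in the controls, so part of the Trpm5 value may belong to that gene.

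FPKM are per length, so levels of different genes can be set side by side. By mean level in the TNF libraries the order was the merged Ascl3 row, Coch, Foxi1, Cftr, Trpm5, Pou2f3, Plcb2 and Gnat3. In the control libraries Coch stood above the merged Ascl3 row and Pou2f3 above Trpm5. Neighbours in the TNF order overlapped between Ascl3 and Coch, between Foxi1 and Cftr, and among the 4 tuft genes from Trpm5 down, with Pou2f3 at 0.444 ± 0.395 FPKM and Trpm5 at 0.974 ± 0.535 FPKM (SD, n = 3). In the control libraries Coch, Ascl3, Foxi1 and Cftr did not overlap with each other, whereas Cftr and Pou2f3 did (3.38 ± 1.98 and 3.26 ± 1.80 FPKM), as did Pou2f3 and Trpm5, Trpm5 and Plcb2, and Plcb2 and Gnat3 (0.513 ± 0.379 and 0.487 ± 0.407 FPKM).

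Among the other genes of taste transduction and of tuft cells, 10 of 39 rows tested fell and 6 rose, members included, beside 27.2% called lower and 10.9% called higher over all rows. In 3 of the 39 rows (Pou2f3, Tas1r1 and Gfi1b) only the group in which they are high reached 1 FPKM. They passed the filter through that group alone. The median log2 change of the 39 rows was −0.38, against −0.22 over all rows. In the taste cascade, the sweet and umami receptor family gene Tas1r1, which reached 1 FPKM in control libraries alone and so passed the filter only through them, fell to 0.184, 0.0611 and 0.283 FPKM in the TNF libraries, against 2.85, 1.63 and 2.47 FPKM in the controls (−1.48 ± 0.20, adjusted p = 0.00198, limma). The G protein subunit genes Gnb1 and Gng13 fell, with log2 changes of −2.28 ± 0.25 and −6.28 ± 1.64 (SE, adjusted p = 0.00104 and 0.0234, limma). Gnb1 was at 280, 259 and 251 FPKM in the TNF libraries, against 1146, 1060 and 1726 FPKM in the controls. These levels are far above those of Gnat3 and Plcb2, and the part of other cell types in them was not tested. Gng13 is also a gene of olfactory neurons, was at 216, 3.19 and 1.03 FPKM in the TNF libraries and at 706 to 1400 FPKM in control libraries, and its call was lost on omission of any single library other than TNF replicate 1. The part of olfactory neurons in its values was not tested. The calcium release channel gene Itpr3 and the channel gene Trpm4, a close relative of Trpm5, rose by 1.39 ± 0.21 and 1.40 ± 0.19 (adjusted p = 0.00308 and 0.00207), with Itpr3 at 4.12 to 4.20 FPKM in TNF libraries and 0.660 to 1.49 FPKM in control libraries. For Itpr3 the TNF libraries, in which it is high, met the filter by themselves. Scaled to the HBC list, these rises were 0.41 and 0.13 and did not pass.

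In the tuft identity list 6 of 16 genes fell and 1 rose, beside 27.2% called lower and 10.9% called higher over all rows. Dclk1, the kinase gene used to mark tuft cells in the gut, was at 27.8, 30.9 and 33.3 FPKM in the TNF libraries, against 65.2, 61.3 and 54.7 FPKM in the controls (−0.95 ± 0.15, adjusted p = 0.00347, limma). The part of other cell types in the Dclk1 values was not tested. The phosphatase genes Ptpn6 and Inpp5j fell by 1.26 ± 0.23 and 1.52 ± 0.33 on the log2 scale (SE, adjusted p = 0.00573 and 0.0120). Vav1, a signalling gene of blood cells, and Nrgn, a calmodulin-binding protein gene, fell as well (−1.52 ± 0.46 and −2.05 ± 0.59, adjusted p = 0.0385 and 0.0322), named after their values were seen and highest in control replicate 4, at 9.56 and 16.6 FPKM. Neither passed when TNF replicate 3 or 4 or control replicate 2 was left out, nor did Vav1 without control replicate 1. Each reached 1 FPKM in only 1 TNF library, so the control libraries, in which both are high, met the filter by themselves. Krt18, a keratin gene of simple epithelia, rose by 0.94 ± 0.25 (adjusted p = 0.0266) but was at −0.57 when scaled to the HBC list, and lost the call without TNF replicate 3 or 4 or control replicate 1 or 2.

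Control replicate 4 was the highest library in 19 of the 39 tuft and taste rows (48.7%), against 33.7% of all rows tested. It was also the highest for the macrophage and myeloid list, whose 15 markers summed to 204 to 604 FPKM in TNF libraries, against 366, 417 and 1874 FPKM in the controls, with 11 called lower and none at 0 throughout. Vav1, Ptpn6 and Plcb2 are expressed by blood cells too, and the part of such cells in their values was not tested. Rgs13 and Lrmp, tuft genes named after their values were seen, were high in both control replicate 4 and TNF replicate 1. Rgs13 was at 3.53, 0.417 and 0.347 FPKM in the TNF libraries and at 1.20, 0.7501 and 3.73 FPKM in the controls. Lrmp was at 6.34, 0.838 and 0.688 FPKM in the TNF libraries and at 4.30, 4.92 and 11.2 FPKM in the controls. Neither passed the test (adjusted p = 0.658 and 0.136, limma). Without TNF replicate 1 Lrmp was called lower (adjusted p = 0.00898, limma), but the row then passed the filter only through the control libraries. That call adds no support.

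Of the 8 transcription factor rows tested in the tuft list, 1 fell (Pou2f3) and 2 rose, beside 27.2% called lower and 10.9% called higher over all rows. Spib, an Ets factor of tuft, M and B cells, shares a merged row with Mybpc2 and could not be measured on its own. The merged row rose to 73.2, 48.7 and 43.9 FPKM in the TNF libraries, against 2.87, 7.51 and 1.59 FPKM in the controls (3.64 ± 0.45, adjusted p = 0.00148, limma). It passed in 16 of 16 alternatives. What part of that row is Spib cannot be told apart in these values. The B and plasma cell markers summed to 580, 525 and 399 FPKM in the TNF libraries, against 100.3, 128 and 846 FPKM in the controls, with 4 of 6 tested called lower and none at 0 throughout, and their part in the Spib row was not tested. Gfi1b, a zinc finger factor of tuft and blood cells, was at 4.46, 2.59 and 1.04 FPKM in the TNF libraries and at 0.0779, 0.105 and 0.279 FPKM in the controls (1.57 ± 0.35, adjusted p = 0.0137). It too passed the filter only through the group in which it is high, and leaving out control replicate 1 or 2 ended its call. The 9 mast cell and basophil markers summed to 3.77, 39.1 and 39.5 FPKM in the TNF libraries, against 7.72 to 12.9 FPKM in the controls. Mcpt4, Ms4a2 and Tpsb2 were at 0 throughout, and 7 of the 9 markers were at 0 in every TNF library. The TNF sums came from Kit (3.53, 22.9 and 20.7 FPKM) and Gata2 (0.235, 16.2 and 18.9 FPKM) alone. The part of such cells in Gfi1b was not tested. Sox9, a factor of gland and tuft cells, was at 94.4 ± 13.4 FPKM in TNF and 61.2 ± 31.2 FPKM in control libraries (adjusted p = 0.173).

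Of the output genes of tuft cells, the leukotriene enzyme gene Alox5 rose, at 13.4, 13.3 and 9.73 FPKM in the TNF libraries, against 3.06, 1.74 and 7.16 FPKM in the controls (1.54 ± 0.41, adjusted p = 0.0254, limma). Leaving out TNF replicate 3 or control replicate 1 or 2 ended that call, as did scaling to the HBC list, where the change was 0.19. A second, lower row named Alox5 held 2.15, 5.40 and 2.53 FPKM in the TNF libraries and 0.0935, 0.0423 and 0.0373 FPKM in the controls. It passed the filter only through the TNF libraries, so its call (adjusted p = 0.00252, limma) adds no support. Its partner Alox5ap varied within both groups, from 1.57 to 61.0 FPKM in TNF and from 4.16 to 35.3 FPKM in control libraries. Il25, the cytokine through which tuft cells call in immune cells, was named after its values were seen, at 0.277, 0 and 0.179 FPKM in the TNF libraries and 0.567, 0.367 and 2.15 FPKM in the controls, too low for the filter.

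The rows whose pattern over the 6 libraries was most like each tested member were found by Pearson correlation of log2(FPKM + 1) among about 8400 rows with a mean of at least 5 FPKM. Libraries share their group in such a measure, and 6 points leave many rows close to 1. Moxd1, itself an ionocyte list gene, was among the 3 rows nearest to Foxi1 (r = 0.9645), after Itsn1 and Cttnbp2nl (r = 0.986 and 0.971). Coch was nearest to Atp2b1, Cldn25-ps and Eif4g2 (r = 0.990, 0.989 and 0.988). Cftr was nearest to the chemokine gene Cxcl1 (r = 0.9975), which was at 26.2, 224 and 223 FPKM in the TNF libraries and at 71.4, 148 and 20.2 FPKM in the controls, and then to Cd24a and Ccser2 (r = 0.9925 and 0.991). Pou2f3 was nearest to Cacnb3, Cars and Letmd1 (r = 0.9985, 0.998 and 0.998). Trpm5 was nearest to Cdca8, Fbxo5 and Klc4 (r = 0.9855, 0.985 and 0.9765), and the merged Ascl3 row to Pcbp2, Fubp3 and Trip6 (r = 0.998, 0.997 and 0.9965).

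**Figure D4:**
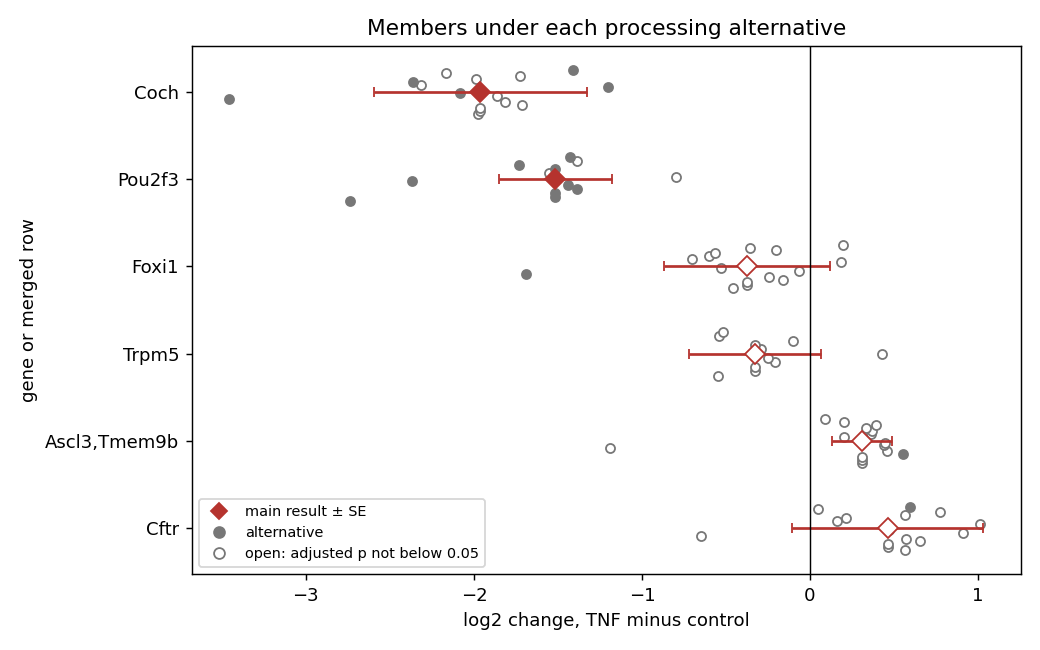
Log2 change, TNF minus control, of the 6 tested members as reported (red diamonds, with bars for the SE) and under each processing alternative that gave a value (grey circles), with filled symbols for an adjusted p below 0.05. Coch and Pou2f3 stay below 0 throughout, with 5 and 9 filled circles, and the outlying circles at the left of Foxi1, Cftr and the merged Ascl3 row are the scaling to the HBC list.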

How the data were processed

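Per the labels' protocols, RNA of the sorted cells was amplified from 5 ng with a Clontech kit before Nextera library preparation. The submitters' processing notes name TopHat2 2.1.1, Cuffdiff 2.2.1 and the mm10 build. Their settings, and whether strand was used, are not stated in what was read here. The values that the authors deposited are FPKM, in 1 column per library, although the table's title speaks of raw counts. Because 99.975% of the values above 0 were fractional, count models do not apply. Columns of other samples numbered 0. Replicates may be technical, and p-values then reflect only how far these libraries spread.

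Rows that reached 1 FPKM in 3 or more libraries were tested on log2(FPKM + 1) with limma (version 3.58.1, intensity trend, under R 4.3.3), and p-values were adjusted by Benjamini-Hochberg over all 15037 rows at 0.05. Log2 changes carry this pseudocount and so understate changes of low genes. The procedure was tested on simulated data. The members and the 23 gene lists (243 symbols, 3 not matched) were chosen with earlier results of these data known. Each symbol was matched to its row of highest mean. By rule the text could name the members, up to 4 called genes with the smallest p and the 2 most abundant genes per pathway list, the 2 most abundant per marker list and the 3 rows most like each member. Some of these are left out for length, and a few list genes, though counted in their lists, are not reported here. Annotation is GENCODE M21 (GRCm38, mm10 coordinates, counted from 1). Exons of Cftr, Trpm5, Dclk1, Itpr3, Gng13, Inpp5j, Ptpn6, Lrmp, Ezr, Alox5ap, Tfcp2l1 and Atp6v1h overlap another gene's, so their values are uncertain.

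Alternatives were a pseudocount of 0.1, other filters, 3 scalings, each library left out, the replicate block, a robust variance, the joint omission of control replicate 4 and TNF replicate 1, a stricter threshold (0.01) and a fold minimum of 2. Quantile normalization and ratios to Foxi1 were added after the data were seen.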

Additional observations from a re-analysis of the deposited data

How the results depend on the processing

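The count of members called lower, 2 as reported, was 1 with a pseudocount of 0.1, with no filter, with a filter of 1 library, under median-of-ratios or upper-quartile scaling, with the replicate block, with a robust variance and without control replicate 4 and TNF replicate 1 together. It was 3 of 5 tested after scaling to the HBC list, 0 under quantile normalization and at an adjusted p below 0.01, and 0 to 2 when single libraries were left out. The count called higher, 0 by limma as reported (0 at an unadjusted p below 0.05), was 1 under median-of-ratios scaling (the merged Ascl3 row) and 1 without control replicate 4 and TNF replicate 1 together (Cftr). Of all 84 pathway list rows tested, 21 were lower and 10 higher, beside 27.2% called lower and 10.9% called higher over all rows. The share over all rows under the other settings is not given here. The counts that follow therefore show only how the calls move with the processing. The lower count was 48 after scaling to the HBC list, 7 with the replicate block and 8 at an adjusted p below 0.01, and 10 to 31 when single libraries were left out. The higher count was 1, 4 and 6 under the same 3 settings, 19 without control replicate 4 and TNF replicate 1 together, and 6 to 12 when single libraries were left out. The median change of all rows, −0.22 as deposited, was −1.56 after scaling to the HBC list, 0.01 under median-of-ratios scaling, −0.08 under upper-quartile scaling and 0.05 under quantile normalization. When scaled to the HBC list Krt18, Atp6v0e and Eps8 turned to −0.57, −0.72 and −0.31, and Foxi1 was called lower (−1.69, adjusted p = 0.0375). The cause of these shifts was not tested. Trpm5 turned to 0.43 under quantile normalization, without passing. The block used replicate numbers 1 and 4, and no label says whether a number marks a shared animal, litter or day. The libraries of these numbers did not deviate together (r = −0.0638 and −0.0874), which cannot settle whether they share an origin. With the block Pou2f3 was at −1.55 (adjusted p = 0.0515, limma). In the ratios to Foxi1 no exact test could pass, which says nothing of stability. Depth is unknown, and Plcb2, Gnat3 and Il25 lie under the filter.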

Other observations

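Proton pump genes were looked at beside the ionocyte genes. Of 15 widely expressed subunit genes of the V-type ATPase, 5 fell and 1 rose, beside 27.2% called lower and 10.9% called higher over all rows. Atp6v1h, Atp6v1b2 and Atp6v1d fell by 0.69 ± 0.14, 0.96 ± 0.20 and 0.77 ± 0.16 on the log2 scale (SE, adjusted p = 0.00884, 0.0112 and 0.0113, limma, n = 3 per group). The riser was Atp6v0e, at 218, 148 and 172 FPKM in the TNF libraries, against 107, 107 and 94.7 FPKM in the controls (0.78 ± 0.19, adjusted p = 0.0173), though it turned to −0.72 when scaled to the HBC list. Leaving out 1 library ended the calls of Atp6v1h and Atp6v1d (TNF replicate 3 or 4 or control replicate 1) and of Atp6v0e (TNF replicate 4 or any control). The median of the list was −0.51, against −0.22 over all rows.

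Genes of the microvillus skeleton reached the filter in 5 of 11 cases. Eps8, an actin capping and bundling protein gene, was at 24.3, 35.3 and 28.7 FPKM in the TNF libraries, against 14.6, 13.5 and 10.5 FPKM in the controls (1.13 ± 0.21, adjusted p = 0.00644, limma), but was at −0.31 when scaled to the HBC list. Ezr, which encodes ezrin, the link between actin and the membrane, was at 414, 419 and 355 FPKM in the TNF libraries, against 202, 282 and 99.9 FPKM in the controls, and did not pass (adjusted p = 0.0514), though it did without control replicate 2 (adjusted p = 0.0311). Scaled to the HBC list, Ezr turned to −0.36 (adjusted p = 0.540, limma).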
